A study of Mus musculus with 12 samples.

Results

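The genes described here are the solute carriers, the largest group of membrane transporters, that were expressed in mouse bone marrow-derived macrophages. A gene was taken when its symbol begins with Slc and a number, or with Slco, and when its brightest probe set had a mean log2 signal of at least 7 over all 12 arrays. Slc7a11, Slc7a2, Slc2a1, Slc2a3, Slc2a6, Slc16a1 and Slc16a3 were left out by name, and 6 of these 7 reached the level. This gave 125 genes of 379 solute carrier symbols measured, among 19937 genes on the array, while 248 solute carriers were under the level. The members were chosen by their measured mean, so their mean level is no result. Just inside the limit were Slc46a3 (mean log2 signal 7.01), Slc16a6 (7.06) and Slc35b3 (7.09), and just outside it were Slc35e3 (6.995), Slc35e2 (6.93) and Slc25a25 (6.91). Of the 125 genes, 100 had a mean of at least 7 in each of the 4 groups, and 25 were under 7 in at least 1 group. A gene of the latter kind can enter through a group in which it is high. Slc9a3r1, a scaffold protein, and Slc4a1ap, an adaptor protein, carry solute carrier names and are not themselves carriers.

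The macrophages were grown from the marrow of C57BL/6 mice in medium conditioned by L929 cells, and were used on day 7. The controls, which the labels call wild type, were Hdac3 +/-, so they carried a single intact allele of the histone deacetylase Hdac3, and they were compared with Hdac3 -/- cells. Each genotype was left untreated or was given 100 ng/ml lipopolysaccharide (LPS), the outer membrane glycolipid of Gram-negative bacteria that macrophages sense through a Toll-like receptor, for 4 h. There were 3 arrays in each of the 4 groups. The labels do not say which deletion allele or Cre line was used, or whether replicates came from separate animals, so p-values measure the spread between these arrays only. In bulk RNA, fewer cells of a kind and less RNA per cell cannot be told apart.

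Hdac3 itself read 9.42, 9.10 and 8.98 log2 units in untreated +/- cells and 8.90, 9.02 and 8.66 after LPS. The -/- cells read 7.39, 7.52 and 7.39 untreated, and 6.91, 7.25 and 7.18 after LPS. The -/- arrays lay below all +/- arrays, with a log2 difference of -1.74 ± 0.15 (SE) untreated and -1.75 ± 0.15 after LPS. The part of the gene that was deleted is not given, so a remaining signal may come from sequence outside it. All 7 macrophage markers examined had group means of 9.25 log2 units or more. Markers of 8 other cell types had group means of 6.49 or less, other than S100a8 (5.03, 7.27, 7.07 and 9.23 in the order +/- untreated, +/- LPS, -/- untreated, -/- LPS) and Pf4 (7.63, 8.61, 6.75 and 7.56). Neither of these passed a test in any comparison. The macrophage marker Fcgr1 was lower in -/- cells, with a mean of 9.25 against 10.69 untreated (adjusted p = 0.000604) and of 9.41 against 11.82 after LPS (adjusted p = 2.43e-06). Of the dim markers, Ngp and Cd79b differed between untreated genotypes (adjusted p = 0.0429 and 0.0359), and Xcr1 and Dcn after LPS (0.0132 and 0.00684). With LPS in +/- cells, Cd209a, Cd3e, Cd79a, Dcn and Pdgfrb were higher (adjusted p = 0.0455, 0.0323, 0.00286, 0.00407 and 0.0141). Of the macrophage markers, Cd14 and Fcgr1 were higher (0.00107 and 0.000619) and Csf1r and Itgam lower (0.00661 and 0.0490). In -/- cells only Cd14 passed the LPS test (0.000399). The part of these markers in the results below was not tested.

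Solute carriers move nutrients, ions and metabolites across the plasma membrane and the membranes of mitochondria, lysosomes and the Golgi apparatus. Macrophages change what they import when they meet bacterial products: amino acids, glucose, nucleosides and metals are taken up, stored or withheld, and mitochondrial carriers set which intermediates leave the organelle. HDAC3 acts in the NCoR and SMRT corepressor complexes and takes acetyl groups off histones. In macrophages it is known for its part in inflammatory gene expression.

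On the deposited values, LPS lowered many more of these genes than it raised in Hdac3 +/- cells. Here a gene is said to rise, fall or differ where its adjusted p in limma, corrected over all 19937 genes, was under 0.05, and all values are log2 signal or differences of it with the SE. Of the 125 genes, 14 rose (11.2%) and 48 fell (38.4%), and the median difference was -0.36. Over all genes 9.6% rose and 15.5% fell, with a median of 0.08. Over the 6578 genes with a mean of at least 7, which are the closer background, 13.5% rose and 27.7% fell, with a median of -0.22. The split between rises and falls moved with the scaling of the arrays: it was 14 to 48 on the deposited values, 16 to 42 after a further quantile normalization and 21 to 33 after cyclic loess, where the median was -0.16. No gene called on the deposited values changed direction under either scaling. The upper quartile of the LPS-treated +/- arrays was 7.32, 7.19 and 7.15, against 7.45, 7.37 and 7.50 on the untreated +/- arrays. Of the 248 solute carriers under the level, 195 had a positive and 53 a negative difference, with a median of 0.19. The part of the array scaling in the falls was not tested.

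In Hdac3 -/- cells LPS raised 12 of the 125 genes (9.6%) and lowered 22 (17.6%), with a median of -0.15. With array weights the number called was 57 in -/- cells, 20 upward and 37 downward, and 64 in +/- cells, 14 upward and 50 downward. As background, 3.69% of all genes rose and 5.18% fell, and among genes with a mean of at least 7 the shares were 8.18% and 10.3%. Of the genes that rose, 10 did so in both genotypes, which is 71.4% of the 14 in +/- cells and 83.3% of the 12 in -/- cells. Of those that fell, 20 were shared, which is 41.7% of the 48 in +/- cells and 90.9% of the 22 in -/- cells. No gene rose in one genotype and fell in the other. The 4 genes called in -/- cells alone were Slc3a2 and Slc25a17 upward and Slc10a7 and Slc44a2 downward. A gene called in 1 genotype alone is not thereby shown to differ between them, and the direct test of that difference is given below. The shares of all genes and of genes with a mean of at least 7 are the background for counts per class and list. No class or list was tested against them. Role classes were set by gene family, read from the symbol, so the role of each single gene was not checked. A class can therefore hold genes with another role.

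**Figure D1:**
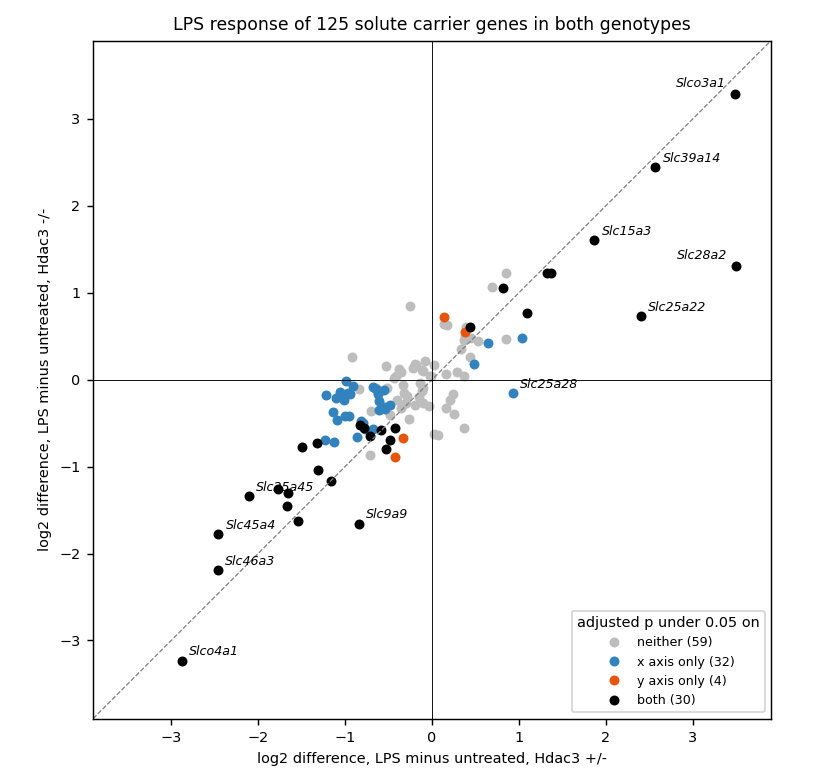
Each point is 1 of the 125 solute carrier genes, placed by its log2 difference between LPS and untreated arrays in Hdac3 +/- cells (x axis) and in Hdac3 -/- cells (y axis). Colours mark the genotype in which the adjusted p was under 0.05, and the dashed line marks equal differences. Slco3a1, Slc39a14 and Slc15a3 lie near the line, while Slc28a2 (3.50 against 1.31) and Slc25a22 (2.40 against 0.73) lie far below it.

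Among transporters of organic anions, Slco3a1 rose and Slco4a1 fell in both genotypes. Slco3a1 read 7.28, 7.42 and 6.54 in untreated +/- cells and 10.71, 10.47 and 10.50 after LPS, an 11.2-fold rise (3.48 ± 0.26, adjusted p = 5.71e-07). The -/- arrays went from 6.93, 5.99 and 6.82 to 10.10, 9.69 and 9.79 (3.28 ± 0.26, adjusted p = 2.26e-06). The LPS and untreated arrays did not overlap in either genotype. All untreated -/- arrays of Slco3a1 and untreated +/- replicate 3 were under 7. Slco3a1 reached the mean level of 7 through the LPS-treated arrays, so its place among the members is a description. Slco4a1 read 7.47, 9.97 and 7.45 untreated in +/- cells and 5.15, 5.55 and 5.56 after LPS (-2.87 ± 0.57, adjusted p = 0.00224). LPS took it in -/- cells from 10.03, 8.18 and 9.82 to 5.94, 6.17 and 6.23 (-3.23 ± 0.57, adjusted p = 0.00247). Slco4a1 was under 7 on every LPS-treated array and reached the mean level of 7 only through the untreated arrays. Its place among the members is thus a description. Untreated +/- replicate 2 stood apart at 9.97. Slco4a1 did not pass the test between untreated genotypes (1.05 ± 0.57, adjusted p = 0.513), and passed it without that array (adjusted p = 0.0233).

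Of 21 metal transporters 4 rose and 2 fell with LPS in +/- cells, and 3 rose and 1 fell in -/- cells. Among genes with a mean of at least 7, 13.5% rose and 27.7% fell in +/- cells, and 8.18% and 10.3% in -/- cells. Slc39a14, an importer of zinc and of iron not bound to transferrin, read 7.86, 6.93 and 6.98 in untreated +/- cells and 9.46, 10.10 and 9.92 after LPS (5.94-fold, 2.57 ± 0.36, adjusted p = 0.000153). Its -/- values went from 6.79, 7.58 and 6.31 to 9.66, 9.75 and 8.61 (5.45-fold, 2.45 ± 0.36, adjusted p = 0.000595). LPS separated the arrays fully in both genotypes. Slc30a1, the zinc exporter of the plasma membrane, rose by 0.82 ± 0.14 in +/- cells and 1.05 ± 0.14 in -/- cells. The other rises were small: Slc30a6 by 0.44 and 0.61 in the respective genotypes, and the copper importer Slc31a1 by 0.48 in +/- cells. With 1 array left out, the Slc30a6 call in +/- cells was kept only without LPS-treated +/- replicate 3 or LPS-treated -/- replicate 2 or 3 (adjusted p between 0.0171 and 0.128). Its call in -/- cells was lost without untreated -/- replicate 1 or 3 or LPS-treated -/- replicate 3 (adjusted p up to 0.0800). The Slc31a1 call was lost without untreated +/- replicate 1 or 3 or LPS-treated +/- replicate 2 or 3 (up to 0.120). Slc30a5, which carries zinc into the Golgi apparatus, fell by 1.32 ± 0.15 in +/- cells and by 0.73 ± 0.15 in -/- cells. After cyclic loess 9 metal transporters rose and 1 fell in +/- cells, in place of 4 and 2. In a list of 9 other genes of zinc and copper handling, the metallothioneins Mt2 (2.66 ± 0.41) and Mt1 (1.20 ± 0.24) rose in +/- cells, Mt2 alone rose in -/- cells (2.11 ± 0.41), and none fell in either genotype.

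Iron and haem carriers did not move as one. Slc25a37 (mitoferrin 1), which brings iron into mitochondria, read 7.74, 7.996 and 7.97 in untreated +/- cells and 9.32, 9.45 and 9.04 after LPS (1.36 ± 0.16, adjusted p = 4.16e-05). The -/- arrays moved from 8.84, 8.98 and 8.83 to 10.33, 10.20 and 9.78 (1.22 ± 0.16, adjusted p = 0.000253). The -/- arrays lay above the +/- arrays in each treatment, by 0.98 ± 0.16 untreated and 0.84 ± 0.16 after LPS. Its relative Slc25a28 (mitoferrin 2) read 8.32, 7.998 and 7.98 untreated and 9.16, 8.67 and 9.27 after LPS in +/- cells (0.93 ± 0.18). In -/- cells the corresponding values were 8.12, 8.05 and 8.03 against 8.01, 7.63 and 8.09 (-0.15 ± 0.18, adjusted p = 0.734). Slc48a1, which moves haem out of the lysosome, fell in +/- cells (-0.68 ± 0.15, adjusted p = 0.00455). It read 10.68, 10.70 and 10.72 in LPS-treated -/- cells against 9.74, 9.39 and 9.70 in LPS-treated +/- cells, a difference of 1.09 ± 0.15 (adjusted p = 0.000266). In a list of 18 measured genes of iron and haem handling, 3 rose and 6 fell with LPS in +/- cells, and 2 rose and 4 fell in -/- cells. Between genotypes 4 of them were higher and 4 lower after LPS, with haem oxygenase Hmox1 at 1.73 ± 0.22 and the ferroxidase gene Cp at -2.54 ± 0.57.

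Amino acid transporters fell and none rose in +/- cells: 10 of 21 passed the test downward, and the median over the class was -0.52. In these cells 15.5% of all genes and 27.7% of genes with a mean of at least 7 fell. Slc43a2, a carrier of large neutral amino acids, read 10.32, 10.63 and 10.67 untreated and 8.82, 8.71 and 8.78 after LPS (3.42-fold lower, -1.77 ± 0.13, adjusted p = 5.71e-07). In the -/- genotype it went from 10.66, 10.55 and 10.78 to 9.48, 9.32 and 9.44 (-1.25 ± 0.13, adjusted p = 3.11e-05), and after LPS the -/- arrays lay above the +/- arrays (0.65 ± 0.13, adjusted p = 0.00439). Slc38a2, a sodium-coupled carrier of small neutral amino acids, fell by 1.65 ± 0.21 and by 1.30 ± 0.21 in +/- and -/- cells. Slc38a9, the lysosomal arginine sensor of the mTORC1 pathway, fell by 0.78 ± 0.13 and by 0.56 ± 0.13, the latter lost without untreated -/- replicate 1 or LPS-treated -/- replicate 1 (adjusted p up to 0.0525). In -/- cells 5 of the 21 fell and 1 rose, the heavy chain Slc3a2 (0.72 ± 0.20, adjusted p = 0.0403), for which the +/- difference was 0.14 ± 0.20. Of all genes 5.18% fell in -/- cells, and of genes with a mean of at least 7, 10.3%. The Slc3a2 call was lost without untreated or LPS-treated +/- replicate 3, untreated -/- replicate 1 or 3, or any LPS-treated -/- array (adjusted p up to 0.177). After a further quantile normalization 7 of the 21 fell in +/- cells, and 6 after cyclic loess, with no rise under either.

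After LPS 6 of the 21 amino acid transporters were higher in Hdac3 -/- than in +/- cells and 1 was lower. Over all genes 9.69% were higher and 5.99% lower, and over genes with a mean of at least 7 the shares were 18% and 11.1%. Slc36a1, a proton-coupled exporter of small amino acids from lysosomes, read 7.67, 8.14 and 8.21 in untreated +/- cells, and 6.42, 7.52 and 7.16 after LPS. In Hdac3 -/- cells it read 8.47, 8.82 and 8.60 untreated, and 8.31, 8.71 and 8.42 after LPS. The LPS-treated -/- arrays lay above all LPS-treated +/- arrays by 2.72-fold (1.45 ± 0.24, adjusted p = 0.00115). Its fall in +/- cells (-0.97 ± 0.24, adjusted p = 0.00914) did not pass the test after quantile (adjusted p = 0.0523) or cyclic loess normalization (adjusted p = 0.0644). Slc36a4, of the same family, read 9.28, 9.13 and 9.24 in LPS-treated -/- cells against 8.44, 7.95 and 7.85 in LPS-treated +/- cells (1.14 ± 0.17, adjusted p = 0.000614). Slc66a1, the lysosomal exporter of cationic amino acids, read 7.31, 7.60 and 7.56 against 6.70, 6.74 and 6.20 (0.94 ± 0.15, adjusted p = 0.00100). Slc38a6 differed by 1.12 ± 0.27 (adjusted p = 0.0118), which did not pass without LPS-treated +/- replicate 3 (adjusted p = 0.0556). After cyclic loess the count in LPS-treated cells was 5 higher and 4 lower. Without LPS none of the 21 passed the test between genotypes on the deposited values. After cyclic loess 1 of them, Slc38a9, was lower in untreated -/- cells.

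The Slc36a1 promoter is shown because it holds the lysosomal motif in full. Its 300 bases, 250 before and 50 after the transcript start, lie at chr11:55204090-55204389 on the plus strand of GRCm38.p6 in RefSeq. Capitals mark an E-box (CACGTG) at bases 220 to 225, and from base 247 to base 260 a CLEAR element (TCACGTGA, bases 247 to 254, which contains a second E-box at 248 to 253) that overlaps an antioxidant response element (TGACNNNGC, bases 252 to 260).
Slc36a1: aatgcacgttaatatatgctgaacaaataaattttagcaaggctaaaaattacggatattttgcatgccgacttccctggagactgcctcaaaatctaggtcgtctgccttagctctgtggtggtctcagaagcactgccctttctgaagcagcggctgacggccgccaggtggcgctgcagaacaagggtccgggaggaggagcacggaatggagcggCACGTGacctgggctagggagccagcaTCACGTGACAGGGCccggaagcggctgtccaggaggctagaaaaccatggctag
RefSeq windows were matched for 98 of the 125 genes, 138 windows in all. Searched on both strands, the CLEAR element was in 2.90% of them (Slc25a36, Slc35a5, Slc36a1 and Slc37a3), in 0.974% of all 32851 promoter windows and in 2.43% of the 6910 windows of genes with a mean of at least 7. The E-box was in 15.9% of the members' windows, 7.15% of all and 11.1% of those of expressed genes. The antioxidant response element was in 16.7%, 12.4% and 14.4% respectively. The NF-kB site was in 12.3%, 8.46% and 10.2%, the AP-1 site (TGANTCA) in 7.25%, 7.81% and 4.82%, and the amino acid response element (TGATGNAA) in 3.62%, 3.97% and 2.26%. These are letter matches and do not show that a factor binds.

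Companion genes of the lysosomal carriers were read from a separate list of accessory subunits and partners, of which 17 of 20 were measured. In +/- cells 8 fell with LPS and none rose, led by folliculin, Flcn (-2.36 ± 0.24), and its partners Fnip1 (-1.25 ± 0.19) and Fnip2 (-0.87 ± 0.27). In -/- cells 3 fell. Of genes with a mean of at least 7, 27.7% fell in +/- cells and 10.3% in -/- cells. After LPS 7 of the 17 were higher in -/- than in +/- cells, with Flcn at 1.46 ± 0.24, Fnip1 at 0.74 ± 0.19 and Lamtor1 at 0.74 ± 0.22, and none was lower, beside the 9.69% of all genes and 18% of genes with a mean of at least 7 that were higher. None passed the test between untreated genotypes. In a list of 20 measured genes of the amino acid starvation response, 2 rose and 2 fell with LPS in +/- cells and 2 rose and 1 fell in -/- cells, with Nupr1 (1.65) and Cebpb (1.55) up and Sesn2 (-1.20) down in +/- cells.

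Mitochondrial carriers were the largest class, with 26 genes. In +/- cells 13 fell and 3 rose, and in -/- cells 3 fell and 3 rose. In +/- cells the split was 13 falls and 5 rises after quantile normalization and 9 falls and 5 rises after cyclic loess. As background, 27.7% of genes with a mean of at least 7 fell and 13.5% rose in +/- cells. In -/- cells these shares were 10.3% and 8.18%. The rises in +/- cells were Slc25a22, Slc25a37 and Slc25a28. Slc25a45 fell the most: it read 10.22, 10.61 and 10.00 in untreated +/- cells and 8.91, 7.89 and 7.72 after LPS (4.30-fold lower, -2.11 ± 0.28, adjusted p = 0.000105). The -/- arrays went from 11.002, 10.53 and 10.91 to 9.55, 9.11 and 9.76 (-1.34 ± 0.28, adjusted p = 0.00767). After LPS the -/- arrays lay above the +/- arrays (1.30 ± 0.28, adjusted p = 0.00659). Slc25a36, which carries pyrimidine nucleotides, fell 2.83-fold in +/- cells and 1.71-fold in -/- cells. The fall in -/- cells had an adjusted p of 0.0101, and of 0.0512 without LPS-treated -/- replicate 2. A second probe set of Slc25a36, only slightly dimmer, showed LPS differences of -2.00 in +/- cells and -0.62 in -/- cells. Its genotype difference after LPS was 1.11, against 0.21 for the probe set used. With the mean of all probe sets, Slc25a36 passed the test between genotypes after LPS. Slc25a13 (-1.13), Slc25a16 (-1.01) and Slc25a26 (-0.95) fell in +/- cells, and in -/- cells their differences were -0.72, -0.23 and -0.42, none past the test. After LPS 6 of the 26 were higher in -/- cells and 3 lower, the latter being Slc25a22, Slc25a28 and the aspartate-glutamate carrier Slc25a12 (-1.11 ± 0.20). Of genes with a mean of at least 7, 18% were higher and 11.1% lower, and of all genes 9.69% and 5.99%. A list of 15 measured enzymes of the tricarboxylic acid cycle and linked pathways had 9 falls and 2 rises in +/- cells (Acod1, which makes itaconate, at 3.30, and Arg1 at 2.32). Of the same enzymes 1 fell and 1 rose in -/- cells.

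Slc25a22, a mitochondrial glutamate carrier, responded less to LPS in Hdac3 -/- cells. It read 7.45, 7.53 and 6.96 in untreated +/- cells and 9.91, 9.51 and 9.73 after LPS, a 5.29-fold rise (2.40 ± 0.18, adjusted p = 5.66e-07). Arrays of -/- cells read 7.26, 7.19 and 6.85 untreated and 7.97, 7.70 and 7.81 after LPS, a 1.65-fold rise (0.73 ± 0.18, adjusted p = 0.0184). The rise in -/- cells did not pass the test without untreated -/- replicate 3 (adjusted p = 0.0913), LPS-treated -/- replicate 1 (adjusted p = 0.0892) or LPS-treated -/- replicate 3 (adjusted p = 0.0515). Untreated arrays of both genotypes overlapped, whereas after LPS the -/- arrays lay 3.70-fold below the +/- arrays (-1.89 ± 0.18, adjusted p = 1e-05). The difference between the LPS effects was -1.68 ± 0.25 (adjusted p = 0.00442), and it passed the test with each of the 12 arrays left out in turn.

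RefSeq lists 3 promoter windows for Slc25a22, and 1 of them is printed because it holds the only interferon-stimulated response element found in the members' windows. It lies at chr7:141435326-141435625 on the minus strand of GRCm38.p6 and is written 5′ to 3′ along the gene, with the element (GAAANNGAAA) in capitals at bases 172 to 181. The promoter of Slc28a2, at chr2:122426185-122426484 on the plus strand, is set beside it because that gene shared the pattern over the arrays, and none of the 7 motifs searched is in it.
Slc25a22: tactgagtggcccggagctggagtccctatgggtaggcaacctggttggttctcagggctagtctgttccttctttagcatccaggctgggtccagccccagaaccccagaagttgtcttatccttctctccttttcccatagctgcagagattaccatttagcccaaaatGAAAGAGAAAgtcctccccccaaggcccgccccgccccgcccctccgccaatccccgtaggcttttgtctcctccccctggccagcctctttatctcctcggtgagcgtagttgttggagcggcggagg
Slc28a2: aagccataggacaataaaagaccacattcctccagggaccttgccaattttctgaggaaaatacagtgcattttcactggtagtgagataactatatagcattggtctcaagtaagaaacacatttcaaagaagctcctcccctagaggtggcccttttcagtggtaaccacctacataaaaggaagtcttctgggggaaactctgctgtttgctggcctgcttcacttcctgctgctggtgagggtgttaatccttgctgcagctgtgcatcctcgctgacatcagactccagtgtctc
The interferon-stimulated response element was in 0.725% of the members' windows, in 3.44% of all windows and in 3.36% of those of genes with a mean of at least 7.

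Slc28a2, a sodium-coupled importer of purine nucleosides, had with Slco3a1 the largest rises in +/- cells, and the largest genotype difference of the members after LPS. It read 8.44, 8.23 and 8.02 in untreated +/- cells and 11.35, 11.89 and 11.95 after LPS, an 11.3-fold rise (3.50 ± 0.29, adjusted p = 1.95e-06). The -/- cells read 7.19, 6.22 and 6.32 untreated and 8.55, 7.57 and 7.52 after LPS, a 2.47-fold rise (1.31 ± 0.29, adjusted p = 0.0123). The -/- arrays lay below the +/- arrays in each treatment, by 3.15-fold untreated (-1.66 ± 0.29, adjusted p = 0.00663) and 14.4-fold after LPS (-3.85 ± 0.29, adjusted p = 2.2e-06). The LPS effects differed by -2.19 ± 0.42 (adjusted p = 0.0230). That call was lost without untreated +/- replicate 3 (adjusted p = 0.0586), LPS-treated +/- replicate 3 (0.0698), untreated -/- replicate 1 (0.0557), LPS-treated -/- replicate 2 (0.0525) or LPS-treated -/- replicate 3 (0.0805). The rise in -/- cells did not pass without untreated -/- replicate 3 (adjusted p = 0.0561) or LPS-treated -/- replicate 1 (adjusted p = 0.0602).

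The symbol Slc28a2b belongs to a related gene whose probe set was under the level and is no member. It read 5.96, 6.11 and 6.23 in untreated +/- cells and 8.87, 9.24 and 9.24 after LPS. In Hdac3 -/- cells it read 5.60, 5.02 and 5.43, and 6.21, 5.74 and 5.60 after LPS. Its LPS effects differed by -2.51 ± 0.27 (adjusted p = 0.000477). Probes for such close relatives can pick up each other's transcripts, so the share of each gene in both signals is uncertain. The other nucleoside carrier that passed tests, the equilibrative transporter Slc29a1, fell with LPS in +/- cells (-0.54 ± 0.13). It read 9.38, 9.21 and 9.27 in LPS-treated -/- cells against 8.66, 8.50 and 8.34 in LPS-treated +/- cells (0.78 ± 0.13, adjusted p = 0.00118). Of 11 genes of nucleotide salvage, 2 rose and 3 fell with LPS in +/- cells, with Upp1 at 3.55 ± 0.39 and Pnp at 1.25 ± 0.20. In -/- cells 2 rose and 1 fell. After LPS Pnp was lower in -/- than in +/- cells (-1.17 ± 0.20).

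**Figure D2:**
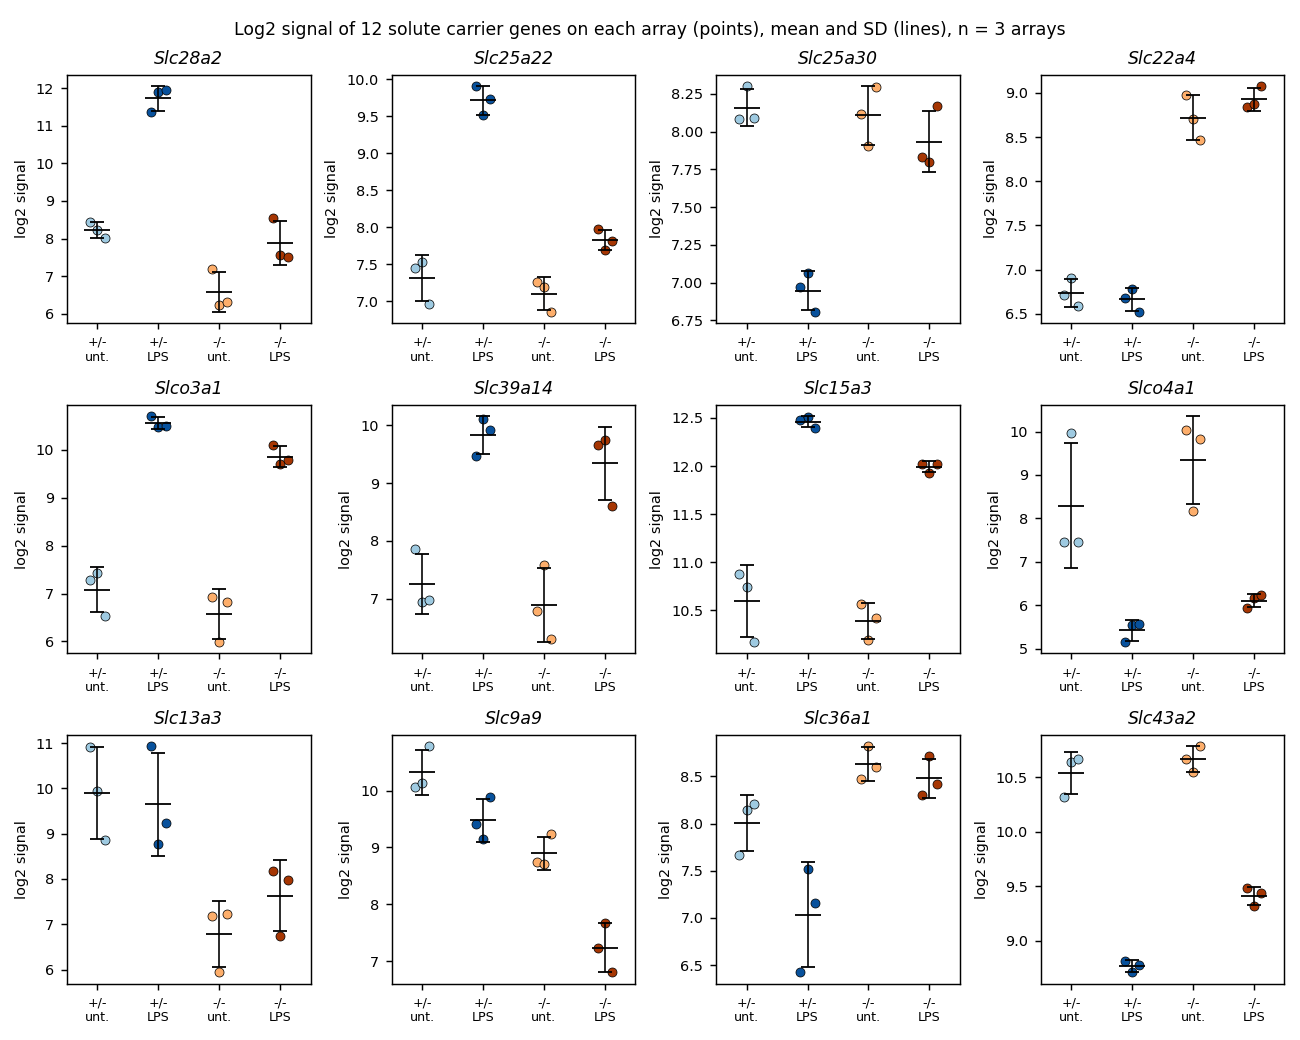
Log2 signal (y axis, a separate scale for each gene) of 12 solute carrier genes on every array, by genotype and treatment (x axis); points are the 3 arrays of a group and lines the mean and SD. Slc28a2 reached 11.35 to 11.95 on the LPS-treated +/- arrays and 7.52 to 8.55 on the LPS-treated -/- arrays, while Slc22a4 was above 8.4 on all -/- arrays and under 7 on all +/- arrays.

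Besides Slc28a2 and Slc25a22, Slc25a30 passed the direct test of whether LPS acted differently in the 2 genotypes, so 3 of the 125 genes did, 1 with a positive difference (0.8%) and 2 with a negative one (1.6%). Over all genes 0.306% had a positive and 0.777% a negative difference, and over genes with a mean of at least 7 the shares were 0.547% and 1.54%. With the replicate number kept as a block within each genotype, a paired fit, 5 members passed: the same 3 with Slc25a28 and Slc16a13. With the block over all groups 3 passed, all with a negative difference: Slc25a30 was lost (adjusted p = 0.0620) and Slc25a28 gained. Slc25a30, a mitochondrial carrier, read 8.08, 8.30 and 8.09 in untreated +/- cells and 6.97, 7.06 and 6.80 after LPS (-1.21 ± 0.15, adjusted p = 5.28e-05). Arrays of -/- cells read 8.12, 7.91 and 8.30, and 7.83, 7.80 and 8.17 after LPS (-0.17 ± 0.15, adjusted p = 0.614). The LPS effects differed by 1.04 ± 0.21 (adjusted p = 0.0317). That call was lost in 8 of the 12 fits with 1 array left out, where the adjusted p ran from 0.0359 to 0.0913, and after quantile normalization (adjusted p = 0.0633). It was kept without LPS-treated +/- replicate 1 or 2, untreated -/- replicate 3 or LPS-treated -/- replicate 2, and lost without any other array. Over the 12 arrays the members most like Slc28a2 were Slc12a4 (Pearson r = 0.968), Slc25a22 (0.942) and Slc9a8 (0.914). Those most like Slc25a22 were Slc28a2 (0.942), Slc23a2 (0.921) and Slc12a4 (0.917), and those most like Slc25a30 were Slc66a1 (0.939), Slc16a13 (0.939) and Slc8b1 (0.936). These are descriptions over arrays that share the 4 groups.

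Nucleotide sugar carriers feed glycosylation in the Golgi apparatus, and all 13 genes of the Slc35 family were put in the class of nucleotide sugars and nucleotides. This class held 6 falls and no rise with LPS in +/- cells, and 2 falls in -/- cells. The background of genes with a mean of at least 7 was 27.7% falls in +/- cells and 10.3% in -/- cells. Slc35c2 fell by 1.24 ± 0.22, Slc35g1 by 1.10 ± 0.27, the GDP-fucose carrier Slc35c1 by 1.00 ± 0.21 and Slc35b4 by 0.83 ± 0.14 in +/- cells. Slc35b4 also fell in -/- cells, by 0.52 ± 0.14, which was lost without untreated -/- replicate 1 or 2 or any LPS-treated -/- array (adjusted p up to 0.180). There Slc35c2 stood at -0.69, Slc35g1 at -0.21 and Slc35c1 at -0.42 without passing the test. All 3 carriers in the sugar class fell in +/- cells on the deposited values, and 2 of them in -/- cells. After quantile normalization and after cyclic loess 2 of the 3 fell in +/- cells. The Slc2a9 call in +/- cells was lost under both scalings. It was also lost in 8 of the 12 fits with 1 array left out (adjusted p up to 0.170). Slc45a4 fell the most of the 3: it read 8.35, 8.22 and 8.37 untreated and 6.03, 5.78 and 5.77 after LPS in +/- cells (5.49-fold lower, -2.46 ± 0.17, adjusted p = 3.29e-07). LPS took it in -/- cells from 8.29, 7.79 and 8.45 to 6.39, 6.24 and 6.58 (-1.78 ± 0.17, adjusted p = 1.33e-05). Slc45a4 was under 7 on every LPS-treated array and reached the mean level of 7 only through the untreated arrays. Its place among the members is thus a description. In a list of 13 measured glycolysis enzymes, 4 rose and 1 fell in +/- cells, with Pfkfb3 at 3.65 ± 0.31 and Hk2 at 1.98 ± 0.26, and 3 rose and 1 fell in -/- cells.

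Carriers of lysosomal and vesicular membranes changed in both directions. Slc15a3, which moves peptides and histidine out of lysosomes and endosomes, read 10.87, 10.74 and 10.17 in untreated +/- cells and 12.48, 12.51 and 12.40 after LPS (1.87 ± 0.17, adjusted p = 4.12e-06). Its -/- values went from 10.57, 10.19 and 10.42 to 12.03, 11.93 and 12.03 (1.60 ± 0.17, adjusted p = 3.86e-05). Its relative Slc15a4, known for its role in Toll-like receptor signalling from endosomes, moved the other way. It read 9.53, 10.37 and 9.83 untreated and 8.99, 8.22 and 8.59 after LPS in +/- cells (-1.31 ± 0.25, adjusted p = 0.00148). In -/- cells it fell by 1.04 ± 0.25 (adjusted p = 0.0161), which did not pass without untreated replicate 1 (adjusted p = 0.0682), untreated replicate 3 (0.0793), LPS-treated replicate 1 (0.0573) or LPS-treated replicate 2 (0.0620). Slc17a5, the exporter of sialic acid from lysosomes, fell by 1.54 ± 0.17 in +/- cells and by 1.62 ± 0.17 in -/- cells. Slc46a3, a lysosomal carrier, read 8.06, 9.21 and 8.88 untreated and 6.09, 6.62 and 6.05 after LPS in +/- cells (-2.46 ± 0.32), and 7.67, 6.94 and 8.26 against 5.58, 5.26 and 5.44 in -/- cells (-2.20 ± 0.32). Slc37a2, a sugar-phosphate antiporter of the endoplasmic reticulum, fell by 1.67 ± 0.15 and by 1.46 ± 0.15 in the respective genotypes. After LPS the genotype difference of Slc15a3 was -0.47 ± 0.17 (adjusted p = 0.0806), and it passed the test after quantile (adjusted p = 0.0450) and cyclic loess normalization (0.0278) and without untreated +/- replicate 3 (0.0253). Slc46a3 differed by -1.09 ± 0.32 untreated (adjusted p = 0.100), and passed without untreated +/- replicate 1 or untreated -/- replicate 3 (adjusted p down to 0.0321). It was under 7 on every LPS-treated array and reached the mean level of 7 only through untreated arrays. Its place among the members is thus a description.

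Of 6 carriers of vitamins, haem and folate, 1 rose and 3 fell with LPS in +/- cells, and 1 rose and 1 fell in -/- cells. The background of genes with a mean of at least 7 was 13.5% rises and 27.7% falls in +/- cells, and 8.18% and 10.3% in -/- cells. Slc23a2, a sodium-coupled importer of vitamin C, rose by 1.09 ± 0.15 in +/- cells and 0.76 ± 0.15 in -/- cells. Slc44a1, a choline transporter, rose by 1.32 ± 0.18 and 1.22 ± 0.18, in the same order, and its -/- arrays lay lower after LPS (-0.82 ± 0.18, adjusted p = 0.00833). A second, dimmer probe set of Slc44a1 showed LPS differences of 1.01 and 0.93 and a genotype difference of -0.34 after LPS. Slc46a1, the proton-coupled folate transporter, read 7.52, 7.01 and 7.80 in LPS-treated -/- cells against 6.49, 6.06 and 6.15 in LPS-treated +/- cells (1.21 ± 0.21, adjusted p = 0.00145). It fell with LPS in +/- cells (-0.94 ± 0.21), and in -/- cells the difference was -0.17 ± 0.21.

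**Figure D3:**
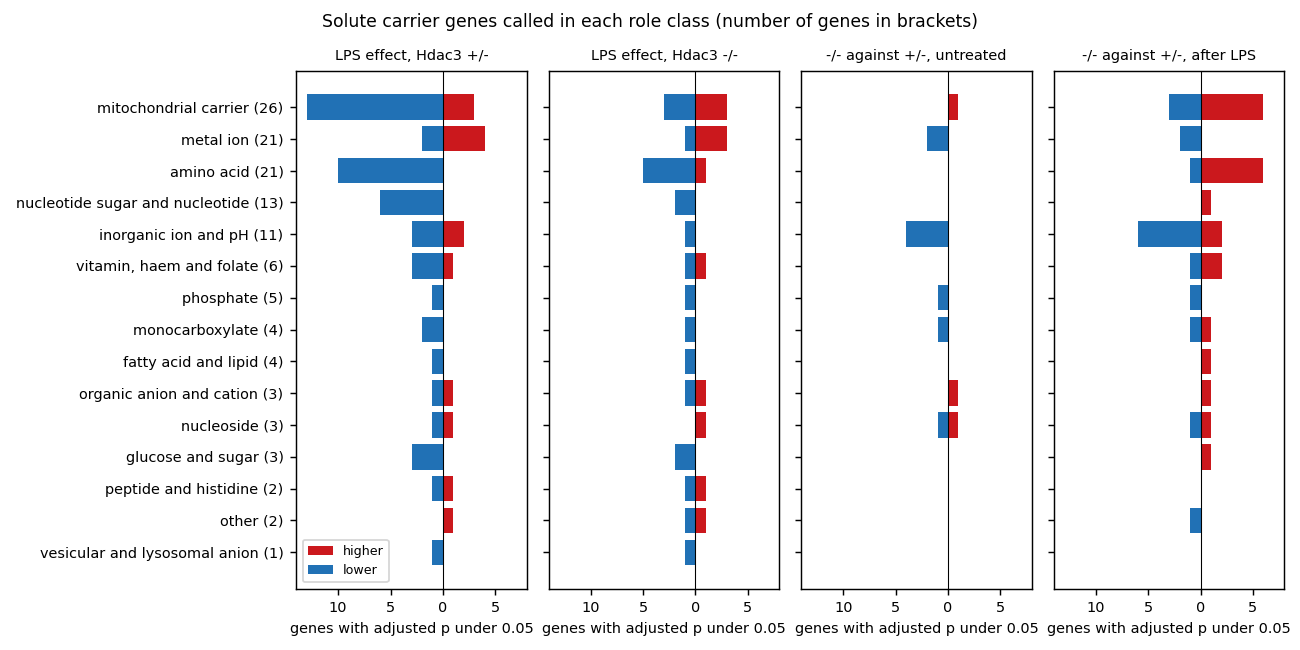
Number of solute carrier genes with an adjusted p under 0.05 (x axis; higher to the right, lower to the left) in each role class (y axis, number of genes in brackets) for 4 comparisons. Amino acid and mitochondrial carriers have 10 and 13 falls with LPS in Hdac3 +/- cells, and inorganic ion carriers have 6 of the 17 genes that were lower in -/- cells after LPS.

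Without LPS, 12 members differed between Hdac3 -/- and +/- cells, 3 higher (2.4%) and 9 lower (7.2%). Over all genes 1.22% were higher and 1.44% lower, and over genes with a mean of at least 7 the shares were 2.6% and 2.92%. With array weights the count was 22, 5 higher and 17 lower. Without untreated -/- replicate 1 it was 5, and 5 of the 12 calls were kept with each array left out in turn. After LPS 39 members differed, 22 higher (17.6%) and 17 lower (13.6%), against 9.69% and 5.99% of all genes and 18% and 11.1% of genes with a mean of at least 7. The share of higher genes was thus at the background of genes of this level. The split again moved with the scaling: 22 to 17 on the deposited values, 18 to 20 after quantile normalization and 15 to 26 after cyclic loess, with a members' median of 0.18, 0.11 and 0.01 in that order. Of the 3 genes higher without LPS all 3 were higher after it, and of the 9 lower genes 7 were lower after it, from arrays that the comparisons do not share. No gene differed in opposite directions.

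**Figure D4:**
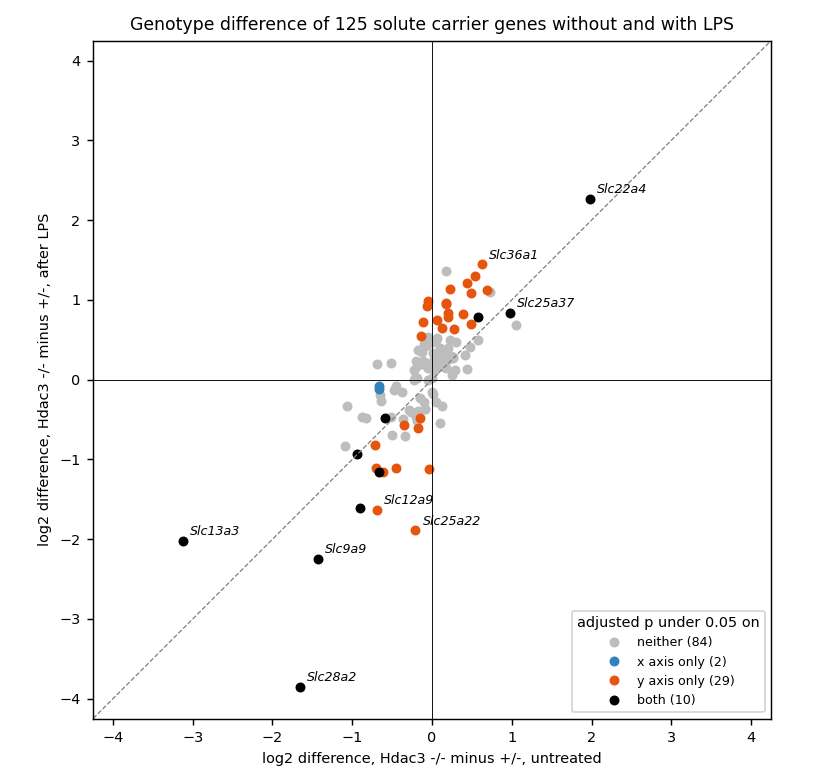
Each point is 1 of the 125 solute carrier genes, placed by its log2 difference between Hdac3 -/- and +/- cells untreated (x axis) and after LPS (y axis). Colours mark where the adjusted p was under 0.05, and the dashed line marks equal differences. Slc22a4 (1.98 and 2.27) lies near the line, and Slc28a2 (-1.66 and -3.85) and Slc25a22 (-0.21 and -1.89) lie below it.

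Slc22a4, a carrier of organic cations that takes up ergothioneine, had the largest positive genotype difference of the members, both untreated and after LPS. It was under 7 on every +/- array and reached the mean level of 7 only through the -/- arrays, so its place among the members is a description. It read 6.72, 6.90 and 6.59 in untreated +/- cells and 8.98, 8.70 and 8.47 in untreated -/- cells, a 3.94-fold difference (1.98 ± 0.15, adjusted p = 4.81e-06). After LPS it read 6.68, 6.78 and 6.52 against 8.84, 8.87 and 9.08, a 4.82-fold difference (2.27 ± 0.15, adjusted p = 7.04e-07). The genotypes did not overlap, and LPS effects did not pass the test in either (-0.08 and 0.21). The other genes higher in -/- cells in both treatments were Slc25a37, described above, and Slc29a1 (0.58 ± 0.13 untreated, adjusted p = 0.0282). The untreated Slc29a1 call was lost without any untreated +/- array or untreated -/- replicate 1 or 3 (adjusted p up to 0.135).

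The class of carriers of inorganic ions and related anions held the most genes that were lower in -/- cells. These were 4 of 11 untreated and 6 of 11 after LPS, where 2 were higher, Slc8b1 and Slc9a3r1. The 11 genes include Slc9a3r1 and Slc4a1ap, which are not themselves carriers. The Slc9a3r1 call was lost in 4 of the 12 fits with 1 array left out (adjusted p up to 0.0920). Over all genes 1.44% were lower untreated and 5.99% after LPS, and over genes with a mean of at least 7, 2.92% and 11.1%. Under either further scaling 4 of the class were lower untreated. After LPS 6 were lower and 1 higher with quantile normalization, and 7 lower and none higher with cyclic loess. Slc13a3, which imports succinate and other dicarboxylates with sodium, read 10.90, 9.94 and 8.87 in untreated +/- cells and 7.18, 5.94 and 7.23 in untreated -/- cells (8.71-fold lower, -3.12 ± 0.59, adjusted p = 0.0104). After LPS it read 10.93, 8.78 and 9.24 against 8.18, 6.74 and 7.97 (-2.02 ± 0.59, adjusted p = 0.0339). The arrays of a group spread widely here, with an SD of 1.02 in untreated +/- cells. The difference after LPS was lost without LPS-treated +/- replicate 1 (adjusted p = 0.111), +/- replicate 3 (0.0629), -/- replicate 2 (0.120) or -/- replicate 3 (0.0728). Both differences were lost with a trended, robust variance estimate (adjusted p = 0.0646 untreated and 0.0978 after LPS).

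Slc9a9, a sodium-proton exchanger of endosomes, read 10.06, 10.13 and 10.78 in untreated +/- cells and 8.75, 8.70 and 9.24 in untreated -/- cells (-1.43 ± 0.26, adjusted p = 0.00802). That difference had an adjusted p of 0.0506 without untreated -/- replicate 1. After LPS the values were 9.41, 9.15 and 9.89 against 7.23, 7.67 and 6.80, a 4.74-fold difference (-2.25 ± 0.26, adjusted p = 6.98e-05). The genotypes did not overlap in either treatment. Of the cation-chloride cotransporters, Slc12a7 read 8.76, 8.36 and 8.84 in LPS-treated +/- cells and 7.11, 6.91 and 7.12 in LPS-treated -/- cells (-1.61 ± 0.19, adjusted p = 9.97e-05). Slc12a9 read 8.71, 8.80 and 8.73 against 7.23, 7.06 and 7.06 (-1.63 ± 0.19, adjusted p = 6.98e-05). Slc12a7 was also lower in untreated -/- cells (-0.91 ± 0.19, adjusted p = 0.0218). That untreated call was lost in 3 of the 12 fits with 1 array left out (adjusted p up to 0.122). Slc12a4 rose with LPS in +/- cells (1.03 ± 0.18) and was lower in -/- cells after LPS (-1.16 ± 0.18, adjusted p = 0.000651). Its LPS difference in -/- cells was 0.48 ± 0.18 (adjusted p = 0.127). Slc8b1, the sodium-calcium exchanger of mitochondria, was higher in -/- cells after LPS (0.83 ± 0.21, adjusted p = 0.0144), and not past the test without LPS-treated +/- replicate 3 (adjusted p = 0.0749), without LPS-treated -/- replicate 3 (0.0631) or after cyclic loess (0.0596).

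Among the remaining classes, the monocarboxylate carrier Slc16a7 was lower in -/- cells by the same amount untreated (-0.94 ± 0.18, adjusted p = 0.00927) and after LPS (-0.94 ± 0.18, adjusted p = 0.00276), and fell with LPS in both genotypes (-1.17 and -1.16). Slc37a3 was lower in -/- cells after LPS, at 7.79, 7.46 and 7.69 against 8.81, 8.80 and 8.79 (-1.15 ± 0.15, adjusted p = 0.000193). It was also lower untreated, a call lost in 5 of the 12 fits with 1 array left out (adjusted p up to 0.118). Slc27a1, a fatty acid transport protein, was higher in -/- cells after LPS (0.82 ± 0.15, adjusted p = 0.00268). The sulfate carrier Slc26a2, which belongs to the inorganic ion class above, was lower in untreated -/- cells (-0.66 ± 0.13, adjusted p = 0.0163) and differed by -0.12 ± 0.13 after LPS. Its untreated call was lost without untreated +/- replicate 3 or untreated -/- replicate 1 or 2 (adjusted p up to 0.0825). The metal carriers Slc30a5 and Slc39a9 were also lower in untreated -/- cells. Each of these calls was lost in 6 of the 12 fits with 1 array left out (adjusted p up to 0.132 and 0.140).

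**Figure D5:**
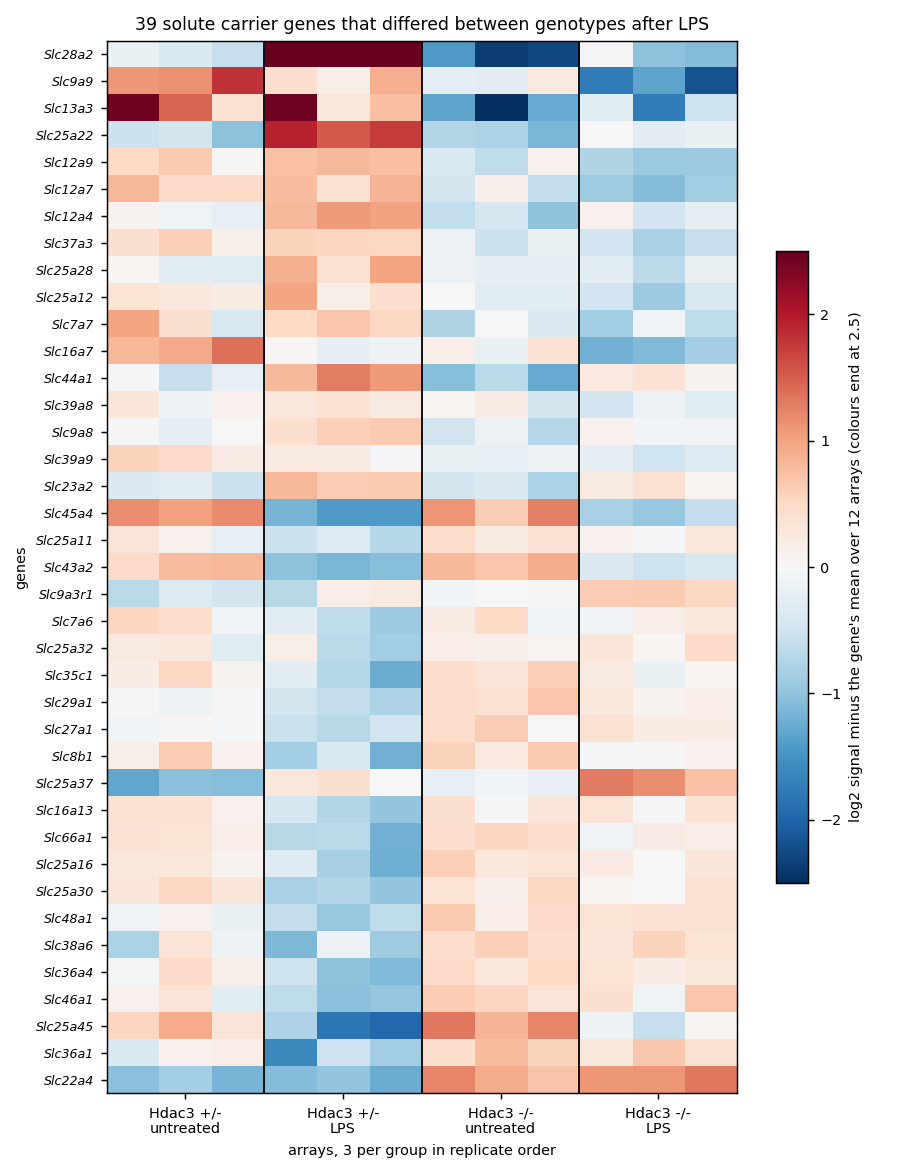
Log2 signal minus the gene's own mean over the 12 arrays (colour, ending at 2.5) for the 39 solute carrier genes that differed between genotypes after LPS (rows, from the most lowered to the most raised in Hdac3 -/- cells), on every array (columns). The row of Slc28a2 is darkest red on the LPS-treated +/- arrays, and the row of Slc22a4 is red on all 6 -/- arrays.

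A list of transporters with other names, 33 of 36 of them measured, stood beside the members. With LPS 11 fell and none rose in +/- cells, where 15.5% of all genes and 27.7% of genes with a mean of at least 7 fell. They were led by Mfsd12 (-1.31 ± 0.18), the haem exporter Flvcr1 (-1.19 ± 0.16) and Nipa1 (-1.08 ± 0.24). In the -/- genotype 6 fell, against backgrounds of 5.18% and 10.3%. None differed between untreated genotypes. After LPS 2 were higher in -/- cells, the mitochondrial serine carrier Sfxn1 (1.23 ± 0.25) and Nipa1 (0.92 ± 0.24), and 2 lower, Nipa2 (-0.89 ± 0.12) and Mfsd1 (-0.54 ± 0.13). The backgrounds were 9.69% higher and 5.99% lower among all genes, and 18% and 11.1% among genes with a mean of at least 7.

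Calls that were kept with each of the 12 arrays left out in turn numbered 46 of 62 for LPS in +/- cells, 20 of 34 for LPS in -/- cells, 25 of 39 for genotype after LPS and 1 of 3 for the difference between LPS effects, that of Slc25a22. No call changed its sign. Among the 100 members with all 4 group means at 7 or more, the numbers called were 47 and 26 for LPS in +/- and -/- cells, 8 and 26 for genotype untreated and after LPS, and 1 for the difference between LPS effects.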

How the data were processed

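The deposited values were log2 signals of Affymetrix whole-transcript arrays, which the authors computed by RMA (the submitters' processing notes also name affy). No version of either is given in the sources here. Of 28193 probe sets, 21640 had 1 gene symbol in the platform annotation, and the brightest probe set per symbol was kept, giving 19937 genes. Group means were fitted with limma 3.58.1 in R 4.3.3 (lmFit and eBayes, no trend), and p-values were adjusted by Benjamini-Hochberg over all genes with a threshold of 0.05. The 5 contrasts were LPS in each genotype, genotype in each treatment, and their interaction. With 3 arrays a group the number of arrays limits the precision. Array medians lay between 5.19 and 5.37 log2 units, and the upper quartile was between 7.15 and 7.50. The members, gene lists, role classes and the rule for named genes were chosen with earlier results of these data known. That rule took, per contrast, up to 10 members in each direction with the largest difference and no overlap between groups, up to 4 more per role class, and up to 3 genes per list; Slc25a17, Slc35a5, Slc4a1ap and Slc9a3r1 were named outside it, after their values were seen. The deviations of same-numbered untreated and LPS arrays had r = 0.243, 0.327 and 0.223 in +/- cells and 0.0898, 0.195 and -0.122 in -/- cells. Differently numbered untreated and LPS arrays of +/- cells ran from -0.305 to 0.107. Across genotypes r reached 0.514, between untreated +/- replicate 2 and untreated -/- replicate 3. These values do not settle whether arrays were paired, so a fit with the replicate block within genotype was run as an alternative. The fit was tested on simulated data. Alternatives were other normalizations, array weights, a trended robust variance, filters, blocks and leaving out each array. Promoter sequences are from RefSeq (GRCm38.p6).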

Additional observations from a re-analysis of the deposited data

Results flagged for a closer look

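The LPS effect differed between genotypes, by the direct test, for 3 transporters. Slc28a2 rose less in Hdac3 -/- cells (difference of LPS effects -2.19 on the log2 scale), as did Slc25a22 (-1.68). Slc25a30 fell with LPS in +/- cells and did not pass the test in -/- cells, and the LPS effects differed by 1.04. No explanation was weighed or tested for any of them. Groups of 3 arrays are too small for the test of single arrays that stand apart.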

How the results depend on the processing

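No call among the members in the 5 comparisons changed its direction under any alternative run. Among named genes 2011 values stayed on their side of the threshold, 141 lost it and 21 gained it. Array weights gave 57 calls for LPS in -/- cells beside 64 in +/- cells, 22 for untreated genotype (5 higher, 17 lower) and 7 for the interaction. A mean level of at least 8 gave 41 calls for LPS in +/- cells, 25 for genotype after LPS and 1 for the interaction. Requiring all 4 group means at 7 or more, chosen after the data were seen, gave 1 for the interaction. The replicate block within genotype gave 5 for the interaction, 69 and 43 for LPS in +/- and -/- cells, and a replicate block over all groups gave 61, 32, 12, 40 and 3 in the order of the comparisons, with Slc25a30 lost and Slc25a28 gained in the last. With 1 array left out, calls ran from 51 to 64 and 23 to 38 for LPS, 5 to 12 and 27 to 43 for genotype, and 1 to 6 for the interaction. Values that passed no test turned sign for LPS in -/- cells. Slc16a13 went from -0.01 to 0.048 after quantile normalization and 0.079 after cyclic loess, with a range of -0.14 to 0.12 when 1 array was left out. Slc27a1, at -0.12, ran from -0.29 to 0.015 when 1 array was left out. Slc7a6, at -0.08, was 0.013 after cyclic loess and ran from -0.23 to 0.071 when 1 array was left out. The cause of these shifts was not tested.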
